A study of Homo sapiens with 2 samples.

Results

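The DLX and GABAergic identity genes are 8 genes of inhibitory neuron formation, GSX2, DLX1, DLX2, DLX5, DLX6, GAD1, GAD2 and SLC32A1, chosen by symbol from 24462 gene symbols counted by RNA sequencing. All 8 had a row in both libraries, and 0 of them were on several rows. They were followed in 1 library of neural precursor cells (NPC), derived from the human embryonic stem cell line H9 by growing it with MS5 cells, and in 1 library of undifferentiated H9 cells (hESC). H9 is an established pluripotent line, and the feeder layer, MS5, consists of mouse stromal cells. Both libraries come from the same line, the labels give no genetic change and no age of the cultures, and counts per human gene do not show what the feeder contributed. The question is what distinguishes gene expression in the derived NPC from that in the hESC they were made from.

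GABA is the main inhibitory transmitter of the forebrain. In the embryo most GABAergic neurons of the telencephalon arise ventrally, in the ganglionic eminences, where the homeobox factor GSX2 acts early and the DLX homeobox factors act after it. In mouse, Dlx1 and Dlx2 are needed for interneurons to form and migrate, Dlx5 and Dlx6 act later in the same lineage, and all of them are also used outside the brain in craniofacial tissue. The enzymes encoded by GAD1 (GAD67) and GAD2 (GAD65) make GABA from glutamate, and the transporter encoded by SLC32A1 (VGAT) loads GABA into synaptic vesicles.

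The human DLX genes lie in neighbouring pairs, DLX1 with DLX2 and DLX5 with DLX6, and the antisense RNA DLX6-AS1 overlaps DLX6 on the other strand in GENCODE 29. The stretches just upstream of 3 annotated starts are shown because DLX2 and DLX6 stand for the 2 pairs with bases free of annotated exons there, and because DLX6 and DLX6-AS1 share their locus. They are RefSeq sequences of GRCh38.p14, 5′ to 3′ on the strand of the gene and ending before the first annotated exon, with the letters TAATT, a core that DLX homeodomains recognise, in capitals on either strand (AATTA on the other strand).
DLX2, chr2:172102901-172103150, minus strand: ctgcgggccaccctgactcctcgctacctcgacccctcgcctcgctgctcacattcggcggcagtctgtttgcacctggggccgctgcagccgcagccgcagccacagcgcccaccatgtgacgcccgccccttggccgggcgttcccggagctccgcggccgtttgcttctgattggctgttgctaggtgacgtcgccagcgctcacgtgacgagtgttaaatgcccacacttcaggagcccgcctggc
DLX6, chr7:97005303-97005547, plus strand: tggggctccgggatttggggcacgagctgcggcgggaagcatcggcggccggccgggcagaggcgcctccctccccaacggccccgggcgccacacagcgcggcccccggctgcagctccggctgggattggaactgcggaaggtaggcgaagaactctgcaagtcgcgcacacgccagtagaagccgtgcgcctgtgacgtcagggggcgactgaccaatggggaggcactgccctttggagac
DLX6-AS1, chr7:97014066-97014315, minus strand: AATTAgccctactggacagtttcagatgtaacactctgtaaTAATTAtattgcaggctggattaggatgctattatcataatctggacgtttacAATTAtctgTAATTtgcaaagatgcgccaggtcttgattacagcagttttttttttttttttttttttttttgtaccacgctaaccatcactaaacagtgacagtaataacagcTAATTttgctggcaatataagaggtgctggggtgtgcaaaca
The DLX2 and DLX6 stretches hold 0 matches, and the DLX6-AS1 stretch holds 6, counting TAATTA once on each strand. Over 250 bases upstream of each start, 1 of 8 windows found for 7 of the genes held the core, that of GSX2, against 23.1% of 35116 windows in the whole table. Of these 8 windows all but that of DLX2 overlap an annotated exon of the same gene. Those of GAD1 and DLX1 and 1 window of GAD2 begin inside one. The DLX6-AS1 window has a GC content of 35.2%, against 68.0% for DLX2, 70.0% for DLX6 and a median of 58.0% over all windows. A match describes letters only and shows no binding.

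The NPC library held 24065750 counted reads and the hESC library 19686728. Levels are given as CPM, read counts scaled to a common library size with TMM factors, and 0 reads still allow a level of 0.110 CPM in the NPC and 0.173 CPM in the hESC library. Markers of both labelled cell types were checked first. POU5F1, the gene of the pluripotency factor OCT4, had 0.662 CPM in the NPC and 1259 CPM in the hESC library, and the neuroectoderm factor gene PAX6 had 83.4 CPM in the NPC and 1.04 CPM in the hESC library. Each ratio below is NPC over hESC with an exact 95% interval that covers counting error only. There was 1 library per group, so no replicate check exists, no p-value was computed, and a difference between the libraries cannot be told apart from one between cultures or preparations. In bulk RNA fewer cells of a type and less RNA per cell cannot be told apart.

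GAD1 stood out among the 8 genes. GAD1 had 640 reads in the NPC library, against 5 reads in the hESC library. Its level was 23.5 CPM (21.7 to 25.4) in the NPC and 0.288 CPM (0.0934 to 0.671) in the hESC library, a ratio of 74.4 (34.9 to 253). A gene was called higher when it reached 5 CPM in either library and its whole interval lay at 2-fold or more, and lower by the mirror rule. By that rule 1 of the 8 genes, GAD1, was higher and 0 were lower, against 19.6% higher and 19.8% lower among all 13535 symbols at 5 CPM. The other 7 genes lay below 5 CPM in both libraries and could not be called, whereas the shares over all symbols count only those at 5 CPM. GAD1 reached 5 CPM in the NPC library alone, which left a lower call out of reach.

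GAD2, the second GABA-synthesising enzyme gene, lay below 5 CPM in both libraries. It had 73 reads in the NPC and 5 reads in the hESC library, which is 2.68 CPM (2.10 to 3.37) in the NPC and 0.288 CPM (0.0934 to 0.671) in the hESC library. Its ratio was 8.54 (3.82 to 29.6), an interval that does not overlap that of GAD1. SLC32A1, which completes the set needed to store GABA, had 19 reads in the NPC and 3 reads in the hESC library. That is 0.698 CPM (0.421 to 1.09) in the NPC and 0.173 CPM (0.0356 to 0.504) in the hESC library. The ratio of 3.56 (1.19 to 21.4) for SLC32A1 did not reach the 2-fold bound.

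**Figure D1:**
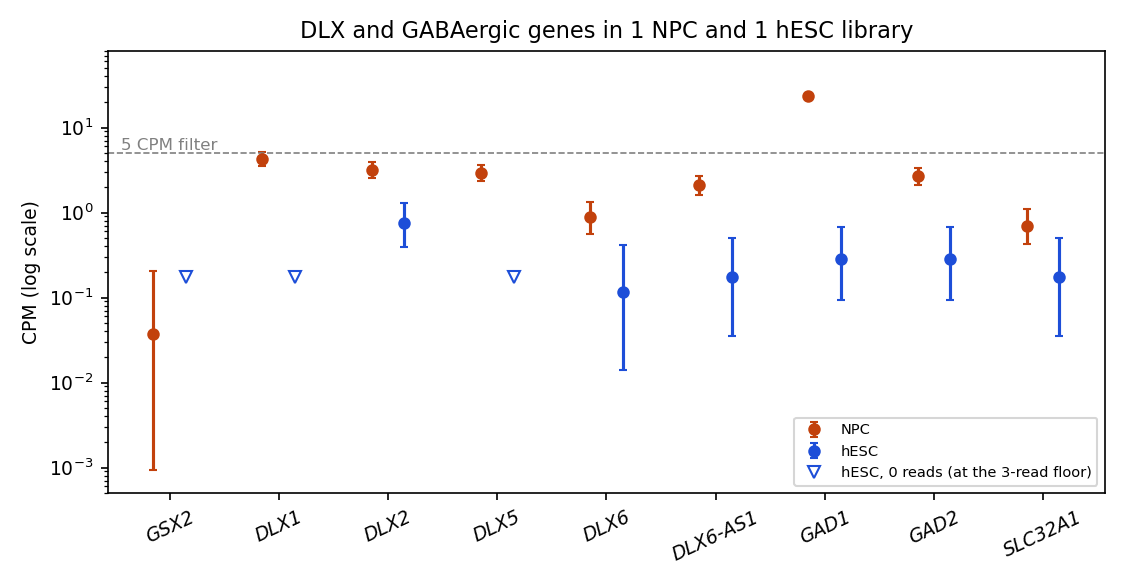
Level of the 8 genes and of DLX6-AS1 in the NPC (orange) and the hESC library (blue), in CPM on a log axis, with 1 library per group. Points are the libraries, bars are exact 95% Poisson counting intervals, open triangles mark 0 reads at the floor of 3 reads, and GAD1 alone lies above the dashed line at 5 CPM.

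Of the upstream pair of DLX genes, DLX1 was seen in the NPC library alone and DLX2 in both. DLX1 had 117 reads in the NPC and 0 reads in the hESC library, or 4.30 CPM (3.56 to 5.15) in the NPC library. Against the floor of 3 reads in the hESC library it was at least 24.9-fold higher, a bound from the floor alone, while its exact interval began at a ratio of 19.9. DLX2 had 87 reads in the NPC and 13 reads in the hESC library, or 3.20 CPM (2.56 to 3.94) in the NPC and 0.748 CPM (0.398 to 1.28) in the hESC library. Its ratio was 4.14 (2.37 to 8.35). Of the 15 reads that the 4 DLX genes had together in the hESC library, 13 belonged to DLX2.

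The other pair, DLX5 and DLX6, was at or near 0 reads in the hESC library. DLX5 had 80 reads in the NPC and 0 reads in the hESC library, or 2.94 CPM (2.33 to 3.66) in the NPC library, and was at least 17.0-fold higher by the same floor, with an exact interval from 13.5. DLX6 had 24 reads in the NPC and 2 reads in the hESC library, or 0.882 CPM (0.565 to 1.31) in the NPC and 0.115 CPM (0.0139 to 0.416) in the hESC library. Its ratio of 6.26 (1.90 to 66.9) missed the 2-fold bound narrowly. DLX6-AS1, an antisense RNA of the locus known in mouse as Evf2, had 57 reads in the NPC and 3 reads in the hESC library, a ratio of 10.5 (3.95 to 60.6). No strand setting is given for the counts, so reads of DLX6 and DLX6-AS1 cannot be told apart where they overlap. GAD1 has the same limit for an antisense gene that overlaps it in GENCODE 29 and has no row of its own name in the counts.

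GSX2, the factor upstream of the DLX genes in the ganglionic eminence, was at the detection limit. It had 1 read in the NPC and 0 reads in the hESC library, so no fold is given. Its relative GSX1 also had 1 read in the NPC and 0 reads in the hESC library. The DLX genes used mainly outside the forebrain were at a similar limit: DLX3 had 6 reads in the NPC and 4 in the hESC library, and DLX4 had 6 in the NPC and 5 in the hESC library. Of 8 names listed for other DLX genes and DLX antisense RNAs, 4 had a row, none reached 5 CPM, and DLX2-AS1 had 0 reads in both libraries.

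**Figure D2:**
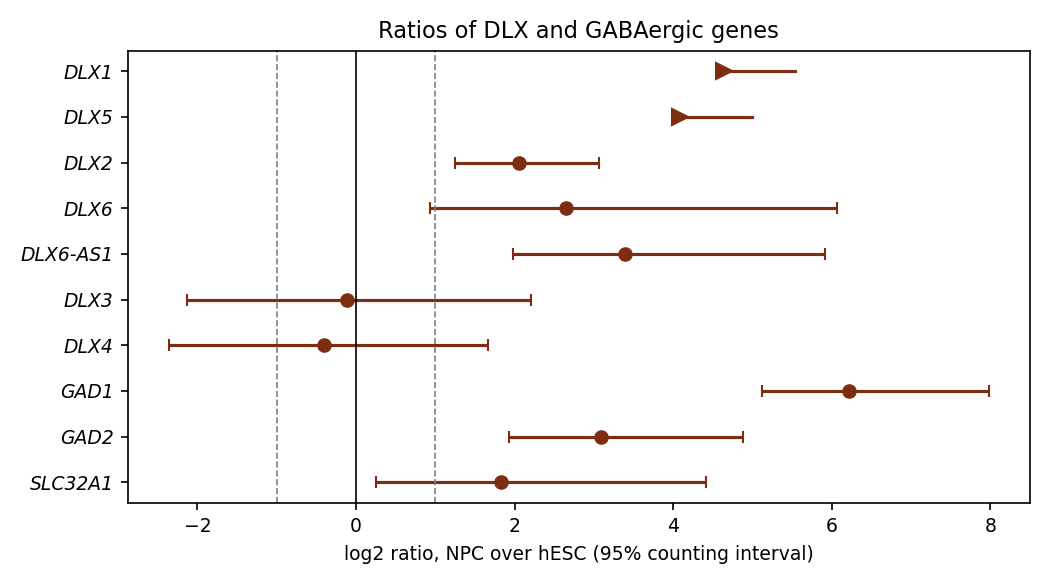
Log2 ratio, NPC over hESC, of the members with more than 3 reads in a library and of DLX6-AS1, DLX3 and DLX4, with exact 95% counting intervals. Dashed lines mark 2-fold, triangles with a tail mark lower bounds for DLX1 and DLX5, which had 0 hESC reads, and the GAD1 interval (log2 ratio 6.22) lies above that of GAD2 (3.09).

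All 8 genes had more reads in the NPC library, but for GSX2 the difference is 1 read. With no filter on low counts, 5 of the 8 genes (GAD1, GAD2, DLX1, DLX2 and DLX5) were higher and 0 lower, against 16.6% higher and 15.3% lower of the 21965 symbols with a read. The same 5 genes are those that reach 1 CPM. Each of them gets there in the NPC library but not in hESC, which leaves a lower call out of reach, and 20.4% of all 16953 symbols at 1 CPM were higher. DLX6, SLC32A1 and GSX2 were not called. Summed over the 4 DLX genes there were 308 reads in the NPC and 15 in the hESC library, a ratio of 13.1 (7.83 to 23.7). Summed over GAD1, GAD2 and SLC32A1 there were 732 reads in the NPC and 13 in the hESC library, a ratio of 36.0 (20.9 to 67.9), most of it from GAD1.

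Levels per kilobase of the longest GENCODE 29 transcript were set side by side within the NPC library. GAD1 had 5.90 CPM per kb (5.45 to 6.37), 2.85 times (2.26 to 3.65) the next gene, DLX5, at 2.07 CPM per kb (1.64 to 2.57). DLX1 followed at 1.63 CPM per kb (1.35 to 1.95) and DLX2 at 1.30 CPM per kb (1.04 to 1.61). With this length DLX5 and DLX1 did not differ beyond counting error, nor did DLX1 and DLX2, whose ratio was 1.25 (0.939 to 1.67). With the median transcript length both pairs differed beyond counting error, DLX1 being 1.78 times (1.33 to 2.40) DLX5 and 2.83 times (2.13 to 3.78) DLX2. The order of these genes and their separation thus rest on the transcript assumed.

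Below them DLX2 was 2.85 times (2.06 to 3.94) GAD2, which had 0.458 CPM per kb (0.359 to 0.576). DLX6 had 0.383 CPM per kb (0.245 to 0.570) and SLC32A1 0.271 CPM per kb (0.163 to 0.424), and with this length neither GAD2 and DLX6 nor DLX6 and SLC32A1 differed beyond counting error. With the median transcript length GAD2 was 2.13 times (1.33 to 3.54) DLX6 and DLX6 was 2.02 times (1.06 to 3.89) SLC32A1, both beyond counting error, while DLX2 and GAD2 no longer differed beyond it, at a ratio of 1.27 (0.922 to 1.76). The GABA enzymes were thus far apart, GAD1 at 12.9 times (10.1 to 16.6) GAD2 per kb, and GAD1 at 21.7 times (13.8 to 36.4) SLC32A1. GAD1 also exceeded DLX1, 3.62 times (2.97 to 4.45) per kb. With the median transcript length GAD1 was 24.8 times GAD2, 107 times SLC32A1 and 6.88 times DLX1. Among 19123 symbols with NPC reads and a known length, 60.6% had a lower NPC level per kb than GAD1, 40.6% than DLX5, 23.5% than GAD2 and 18.4% than SLC32A1. These ranks used the longest transcript, and none were made with the median length. By them all but GAD1 of the 8 genes stood in the lower part of the detected genes.

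The vesicular glutamate transporter gene SLC17A6 (VGLUT2) is the counterpart of SLC32A1 in excitatory neurons. SLC17A6 had 207 reads in the NPC and 0 reads in the hESC library, at least 44.1-fold higher by the floor with an exact interval from 35.5, and 1.93 CPM per kb in the NPC library. GAD1 per kb was 3.06 times (2.61 to 3.60) SLC17A6, whereas GAD2 was 0.238 times (0.180 to 0.312) and SLC32A1 0.141 times (0.0831 to 0.226) SLC17A6. With the median transcript length these ratios were 3.99 for GAD1, 0.161 for GAD2 and 0.0374 for SLC32A1. Which was more abundant in the NPC library, SLC17A6 or the GABAergic gene, thus depended on the GABAergic gene used. The other vesicular glutamate transporter genes moved less: SLC17A7 had 67 reads in the NPC and 61 in the hESC library, a ratio of 0.701 (0.489 to 1.01), and SLC17A8 had 28 in the NPC and 7 in the hESC library, a ratio of 2.43 (1.09 to 6.93). The sum over all 3 was 302 reads in the NPC and 68 in the hESC library, a ratio of 2.84 (2.18 to 3.75).

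**Figure D3:**
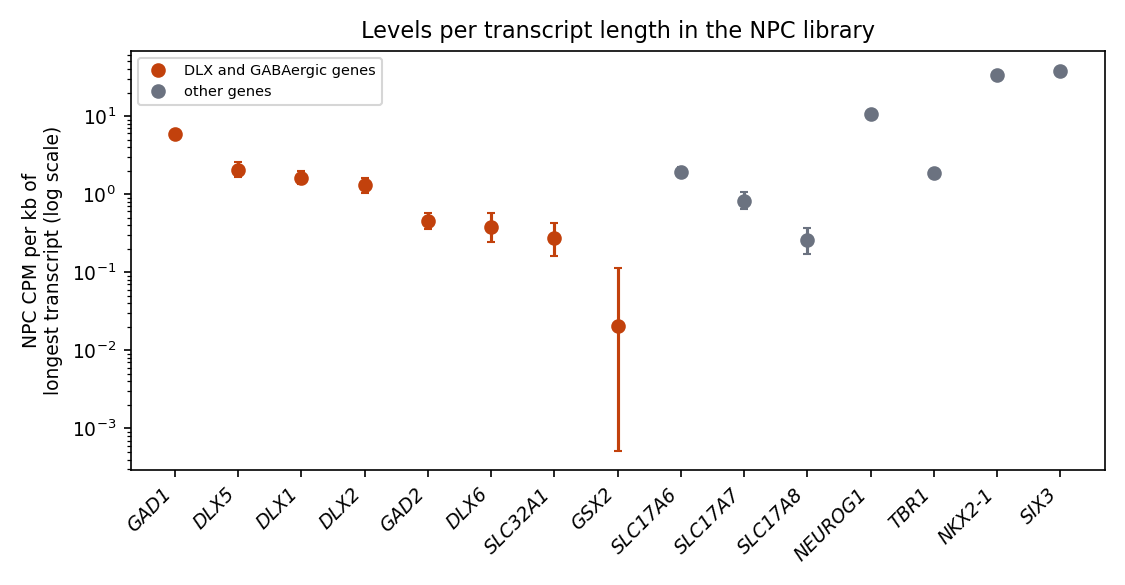
NPC level in CPM per kb of the longest transcript, on a log axis, for the 8 genes (orange) and for other genes of excitatory neurons and forebrain patterning (grey), in 1 NPC library with exact 95% Poisson counting intervals. GAD1 at 5.90 CPM per kb lies above SLC17A6 at 1.93. DLX2, GAD2, DLX6, SLC32A1 and GSX2 lie below SLC17A6, and the intervals of DLX1 and DLX5 overlap that of SLC17A6.

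Gene lists around the 8 genes were read in the same way, and a gene that reaches 5 CPM through the NPC library alone cannot be called lower. The counts with no filter on low counts are therefore given for each list too, beside 16.6% higher, 15.3% lower and a median log2 ratio of 0.11 over the 21965 symbols with a read. Of 14 genes that pattern the ventral forebrain, where DLX genes act, 8 reached 5 CPM, 7 of these were higher and 0 lower, and 2 of the 7 also reached 5 CPM in the hESC library. With no filter 8 of the 14 were higher and 1 lower, and the median log2 ratio was 2.49, or 2.08 when a gene without hESC reads was entered at its lower bound. The ventral factor gene NKX2-1 had 87.7 CPM in the NPC and 0.0575 CPM in the hESC library, and per kb its NPC level was 34.0 CPM, against 1.63 CPM for DLX1. SIX3, an anterior forebrain factor gene, had 94.9 CPM in the NPC and 0.345 CPM in the hESC library. OLIG2, a factor gene of ventral progenitors, had 21 reads in the NPC and 50 in the hESC library, 3.68-fold lower (2.20 to 6.53), and is the gene called lower without the filter.

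Of 23 listed factors that act after or beside DLX genes in GABAergic neurons, 17 reached 5 CPM, of which 13 were higher and 1 was lower, and 3 of the 13 also reached 5 CPM in the hESC library. With no filter 15 of the 23 were higher and 2 lower (median log2 ratio 2.95). NR2F2, of the caudal ganglionic eminence, ZEB2 and MEIS2 were higher, at 295, 95.9 and 14.0 CPM in the NPC library. NPAS1 was 9.44-fold lower (5.68 to 17.6). LHX6, the factor of cortical interneurons from the medial ganglionic eminence, had 26 reads in the NPC and 68 reads in the hESC library. LHX6 was below 5 CPM, was 4.05-fold lower (2.57 to 6.70), and is the other gene called lower without the filter. Its relative in the same list, LHX8, had 66 reads in the NPC and 5 in the hESC library. LHX8 was also below 5 CPM and was 7.73-fold higher (3.44 to 26.8). SOX6 was 53.1-fold higher (33.1 to 98.2) and MAF 9.21-fold higher (7.46 to 11.6). Many genes of this list are also used by other cells of the brain and elsewhere.

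Markers of interneuron and projection GABAergic neuron subtypes went both ways. Of 21 listed names, 20 had a row. Of these 8 reached 5 CPM, 4 higher and 2 lower, and all 4 of the higher ones reached it in the NPC library alone. With no filter 7 of the 19 with a read were higher and 4 lower (median log2 ratio 0.91). RELN, which encodes the secreted protein reelin of some interneurons and of Cajal-Retzius neurons, had 115 CPM in the NPC and 1.09 CPM in the hESC library. ERBB4, a neuregulin receptor gene of interneurons, was 99.5-fold higher (56.6 to 218), and ACKR3, a chemokine receptor gene, was 34.0-fold higher (15.8 to 116). PPP1R1B, the gene of the striatal protein DARPP-32, was 14.1-fold lower (11.3 to 18.1), and CALB1 was 2.64-fold lower (2.41 to 2.89). The dopamine receptor genes of the list were below 5 CPM. DRD1 had 78 reads in the NPC and 3 in the hESC library, 14.3-fold higher (5.48 to 82.3). DRD2 had a ratio of 1.87 (1.03 to 3.80) and was not called without the filter. SST, the gene of somatostatin, had 61 reads in the NPC and 4 in the hESC library. NPY had 119 in the NPC and 11 in the hESC library, 6.64-fold higher (3.73 to 14.2). PVALB had 2 in the NPC and 13 in the hESC library, and VIP had 0 in both.

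Around the GABA-making enzymes, genes of breakdown were higher and genes of supply were lower in part. Of 13 genes for GABA uptake, breakdown and precursor supply, 9 reached 5 CPM, 2 higher and 3 lower. With no filter 3 of the 13 were higher and 4 lower (median log2 ratio -0.0023). ABAT, the gene of GABA transaminase, had 150 CPM in the NPC and 8.63 CPM in the hESC library, a ratio of 17.3 (14.7 to 20.6), and ALDH5A1, the next enzyme of the route, was 6.24-fold higher (4.99 to 7.97). The glutamine transporter gene SLC38A1 was 3.24-fold lower (3.12 to 3.36). PDXK, which encodes a kinase that makes the vitamin B6 cofactor of the GAD enzymes, was 2.42-fold lower (2.24 to 2.61).

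GABAergic fate can also be set outside the telencephalon by other factors. Of 12 genes listed for this, 3 reached 5 CPM, each in the NPC library alone, so that a lower call was out of reach: PAX2 with 48.2 CPM, LHX5 with 13.7 CPM and DMBX1 with 7.17 CPM in the NPC library, against 0.115, 0.230 and 0.403 CPM in the hESC library. With no filter these 3 of the 12 were higher and 0 lower, the other 9 were not called, and the median log2 ratio was 2.10, or 1.38 with genes lacking hESC reads at their bound. GATA2 and GATA3, which act in midbrain GABAergic neurons, had 20 and 22 reads in the NPC library, against 9 and 7 in the hESC library. The ratio was 1.38 (0.618 to 3.54) for GATA2 and 1.92 (0.829 to 5.57) for GATA3, so neither differed beyond counting error. Per kb of the longest transcript GATA2 had 0.218 CPM and GATA3 0.259 CPM in the NPC library, against 0.271 CPM for SLC32A1 and 2.07 CPM for DLX5. With this length PAX2 had 11.6 CPM, LHX5 4.67 CPM and DMBX1 2.49 CPM per kb. The part of the listed factors in the GAD1 level was not tested.

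Genes of excitatory and of all neurons were higher in part in the same library. Of 16 glutamatergic markers and factors, 10 reached 5 CPM, 7 higher and 1 lower, and all 7 reached it in the NPC library alone. With no filter 8 of the 15 with a read were higher and 1 lower (median log2 ratio 2.35). Among them were NEUROG1 at 17.6 CPM, TBR1 at 13.3 CPM and NEUROG2 at 12.2 CPM in the NPC library, against 0.0575 CPM each in the hESC library, and GLS2 5.62-fold lower (4.46 to 7.20). Of 16 pan-neuronal genes 10 were higher and 1 was lower, and the median log2 ratio was 2.67, with MAP2 at 861 CPM, STMN2 at 205 CPM and ELAVL4 at 56.2 CPM in the NPC library and RBFOX3 10.4-fold lower (7.97 to 14.1).

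DLX genes are also active in craniofacial mesenchyme and placodes, so genes of those tissues were read beside them. Of 24 such genes, 9 reached 5 CPM, 6 higher and 1 lower, and all 6 reached it in the NPC library alone. With no filter 8 of the 24 were higher and 2 lower (median log2 ratio 1.14). The summed level of the list was 116 CPM in the NPC and 29.2 CPM in the hESC library. TFAP2B had 603 reads in the NPC and 0 in the hESC library, at least 128-fold higher by the floor with an exact interval from 104. PRRX1 had 521 reads in the NPC and 2 in the hESC library, TFAP2A was 49.4-fold higher (23.1 to 168), and PRRX2 was 5.70-fold lower (3.80 to 9.03). HAND2 had 3 reads in the NPC and 0 in the hESC library, SP7 had 3 in the NPC and 6 in the hESC library, and BARX1 had 1 in the NPC and 38 in the hESC library, 40.2-fold lower (10.05 to 2409.9). Of the 24 genes 0 were without NPC reads. The part of such cells in the DLX1, DLX2, DLX5 and DLX6 reads was not tested.

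**Figure D4:**
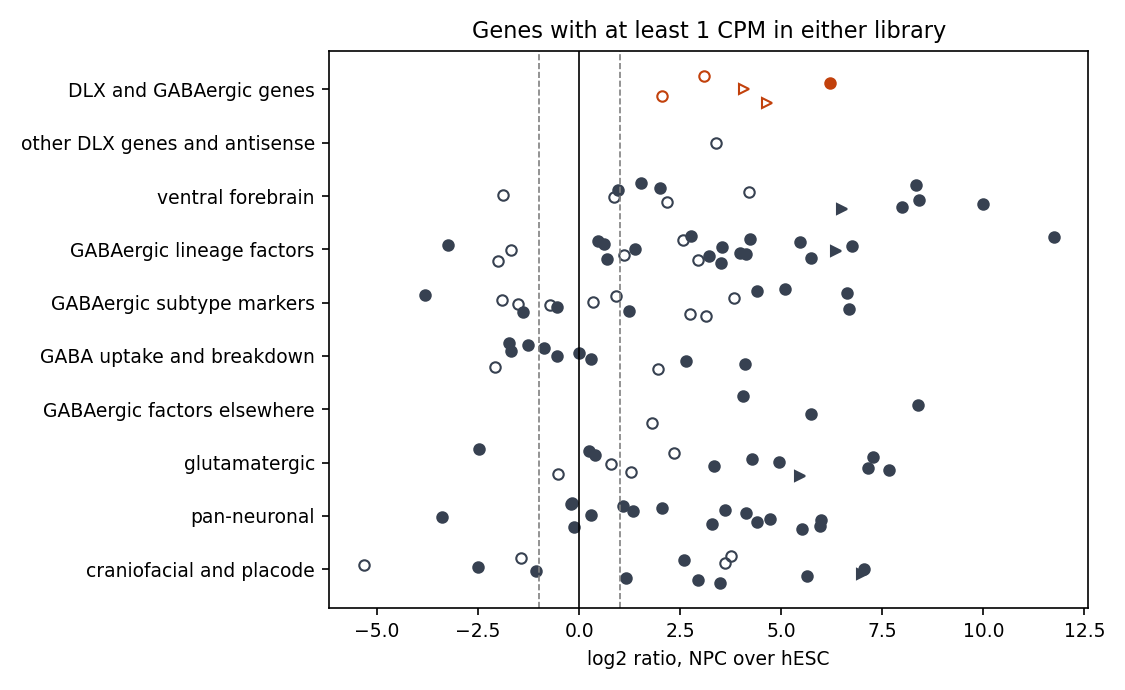
Log2 ratio, NPC over hESC, of each gene that reached 1 CPM in either library, by gene list, with 1 library per group. Filled symbols reached 5 CPM, open ones did not, triangles are lower bounds for genes with 0 hESC reads and dashed lines mark 2-fold; of the DLX and GABAergic genes (orange) GAD1 alone is filled, while every list but the other DLX genes has filled symbols.

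The genes whose levels were most like those of GAD1, by distance over log2(CPM + 0.5) in the 2 libraries, were EBF4, LOC101928381 and CCDC30. EBF4 had 691 reads in the NPC and 5 in the hESC library (distance 0.11), LOC101928381 had 630 in the NPC and 4 in the hESC library (distance 0.11), and CCDC30 had 599 in the NPC and 6 in the hESC library (distance 0.14). With 2 libraries this likeness says only that these counts were close.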

How the data were processed

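RNA of 1 NPC and 1 hESC library was sequenced, and the authors deposited unnormalised read counts by gene symbol. The submitters' processing notes name TopHat, edgeR and hg19 without roles. The counting tool, its strand setting and its use of multiply mapped reads are not given in the sources used. The files have 25737 rows, and of 286 symbols that occur more than once the most covered row entered. TMM factors came from edgeR 4.0.16 in R 4.3.3. Exact 95% Clopper-Pearson intervals on the NPC share of a gene's reads were made in Python 3.11.15 with scipy 1.17.1, with 0.5 added to counts for the point ratio and a floor of 3 reads for counts of 0. These intervals cover counting error only, and reads that carry no molecular identifiers may be copies of 1 molecule. The 5 CPM filter equals 136 reads in the NPC and 86.9 in the hESC library. The interval code was tested on simulated data. Transcript lengths came from GENCODE 29 and upstream sequences from RefSeq on GRCh38.p14, another build than hg19.

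The 8 genes and the 11 gene lists beside them were chosen with earlier results of these data known. From each list the text names up to 3 higher and 3 lower genes with the bound farthest from no change and the most abundant gene, apart from some of the latter and of the label lists. Some genes under this rule are not reported. GSX1, LHX6, LHX8, SOX6, MAF, SST, NPY, PVALB, VIP, DRD1, DRD2, SLC17A6, SLC17A7, SLC17A8, OLIG2, GATA2, GATA3, HAND2, SP7, BARX1, DLX2-AS1, DLX3 and DLX4 were chosen after their values were seen. Alternatives were other scalings (DESeq2 1.42.0 size factors among them), filters, bounds, summed rows, log2(CPM + 1) and median transcript length. In 2 label lists, 7 of 8 pluripotency genes were lower, and 6 of 9 measured neural precursor genes were higher.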

Additional observations from a re-analysis of the deposited data

How the results depend on the processing

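No paired analysis was possible because each group has 1 library. The log2 ratios of DLX1, DLX2, DLX5, DLX6, GAD1, GAD2 and SLC32A1 stayed within their counting intervals with the library total, DESeq2 size factors, upper-quartile factors and summed rows, and the library total shifts every log2 ratio by 0.36. With the difference of log2(CPM + 1) the values were 2.41 for DLX1, 1.98 for DLX5, 0.76 for DLX6, 4.25 for GAD1 and 1.52 for GAD2, since 1 CPM is large beside these levels. At 5 CPM, 1 of the 8 genes was higher, against 5 at 1 CPM and 5 without any filter. Over all genes 2649 were higher and 2683 lower. There were 1684 higher at 20 CPM, and 1236 higher and 983 lower with a 4-fold bound. With TMM 49.7% of calls were higher, against 67.2% with the library total. With median transcript length the NPC level per kb was 4.21 CPM for DLX1, 28.97 CPM for GAD1 and 1.17 CPM for GAD2. Annotated GAD1 transcripts have a median length of 0.812 kb and reach 3.99 kb. Below about 27.2 NPC reads a gene is under 1 CPM, which holds for DLX6, SLC32A1 and GSX2.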
